A study of Mus musculus with 6 samples.

Results

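The nuclear genome encodes most subunits of the 5 enzyme complexes of oxidative phosphorylation, and their transcripts were compared between wild type mouse embryonic stem (ES) cells and ES cells with a knockout of Zscan5b, a gene for a zinc finger protein. Members were chosen by gene name alone: array probes whose name begins as those of the subunits of complexes I to V do, with Ndufa4l2 left out. The rule took 84 names on 127 probes, of 39429 gene probes in all. Of these names, Cox4nb and Atp5sl are not subunits: the first is an older name of a member of the endoplasmic reticulum membrane complex, the second of a factor for complex I assembly. They were set aside, which left 82 genes on 125 probes, of which 36 genes belonged to complex I, 4 to complex II, 8 to complex III, 18 to complex IV and 16 to complex V.

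Total RNA of 3 wild type and 3 Zscan5b knockout cultures was labelled with Cy3 and hybridised to Agilent oligonucleotide arrays. Both genotypes were kept undifferentiated with leukemia inhibitory factor on mouse embryonic fibroblasts inactivated by mitomycin C, so fibroblast RNA can be present in every sample. Nothing in the labels gives the site of the deletion, the way it was made or whether the knockout replicates are separate clones, and p-values therefore measure the spread between these samples, which may be technical. The wild type arrays were on slide 1 and the knockout arrays on slide 2, so slide and genotype cannot be told apart.

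Oxidative phosphorylation is the process by which mitochondria make ATP. Complexes I and II pass electrons from NADH and succinate to ubiquinone, complex III passes them to cytochrome c and complex IV to oxygen, while complexes I, III and IV pump protons that drive the ATP synthase, complex V. Mitochondrial DNA encodes a few core subunits, and nuclear genes, including those studied here, supply the rest. ES cells are known for a strong use of glycolysis beside respiration.

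Signal is given as log2 of the processed intensity minus the 75th percentile of its array, so 0 is the level of that percentile. A log2 fold change is knockout minus wild type and stands with its standard error from limma, and p-values were adjusted by the Benjamini-Hochberg method over the 26651 probes well above background on at least 3 arrays. The array total of such probes ranged from 25371 to 27754. Each gene is represented by its brightest tested probe. The probe for Zscan5b itself stood at -3.66, -4.03 and -3.12 on the wild type arrays, against -4.47, -5.17 and -5.13 on the knockout arrays. The groups did not overlap, and the difference of -1.32 ± 0.29 did not pass the threshold of 0.05 (adjusted p = 0.107).

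The median log2 fold change of the subunit genes was slightly negative in each of the 5 complexes, in complex II with a sign that turned under quantile normalization, and no single subunit passed the test. Of 124 tested subunit probes, 0 were called higher and 0 lower, where 0.124% of all tested probes were called higher and 0.341% lower. The smallest adjusted p of a subunit probe was 0.0715. By one probe per gene, the median log2 fold change over 81 tested genes was -0.17, a change of -11.3%, beside -0.011 over all tested probes. The difference was negative for 72 genes and positive for 9, where 51.4% of all tested probes were negative. At an unadjusted p under 0.05, 15 genes were lower and 2 higher, where 11.3% and 10.6% of all tested probes were. The highest knockout value was under the lowest wild type value for 35 genes, and the order was the reverse for 1, where 15.4% and 13.7% of all tested probes showed these patterns. No subunit gene differed by 2-fold or more (0 of 81), and 60 of 81 had a log2 fold change within 0.25 of 0.

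**Figure D1:**
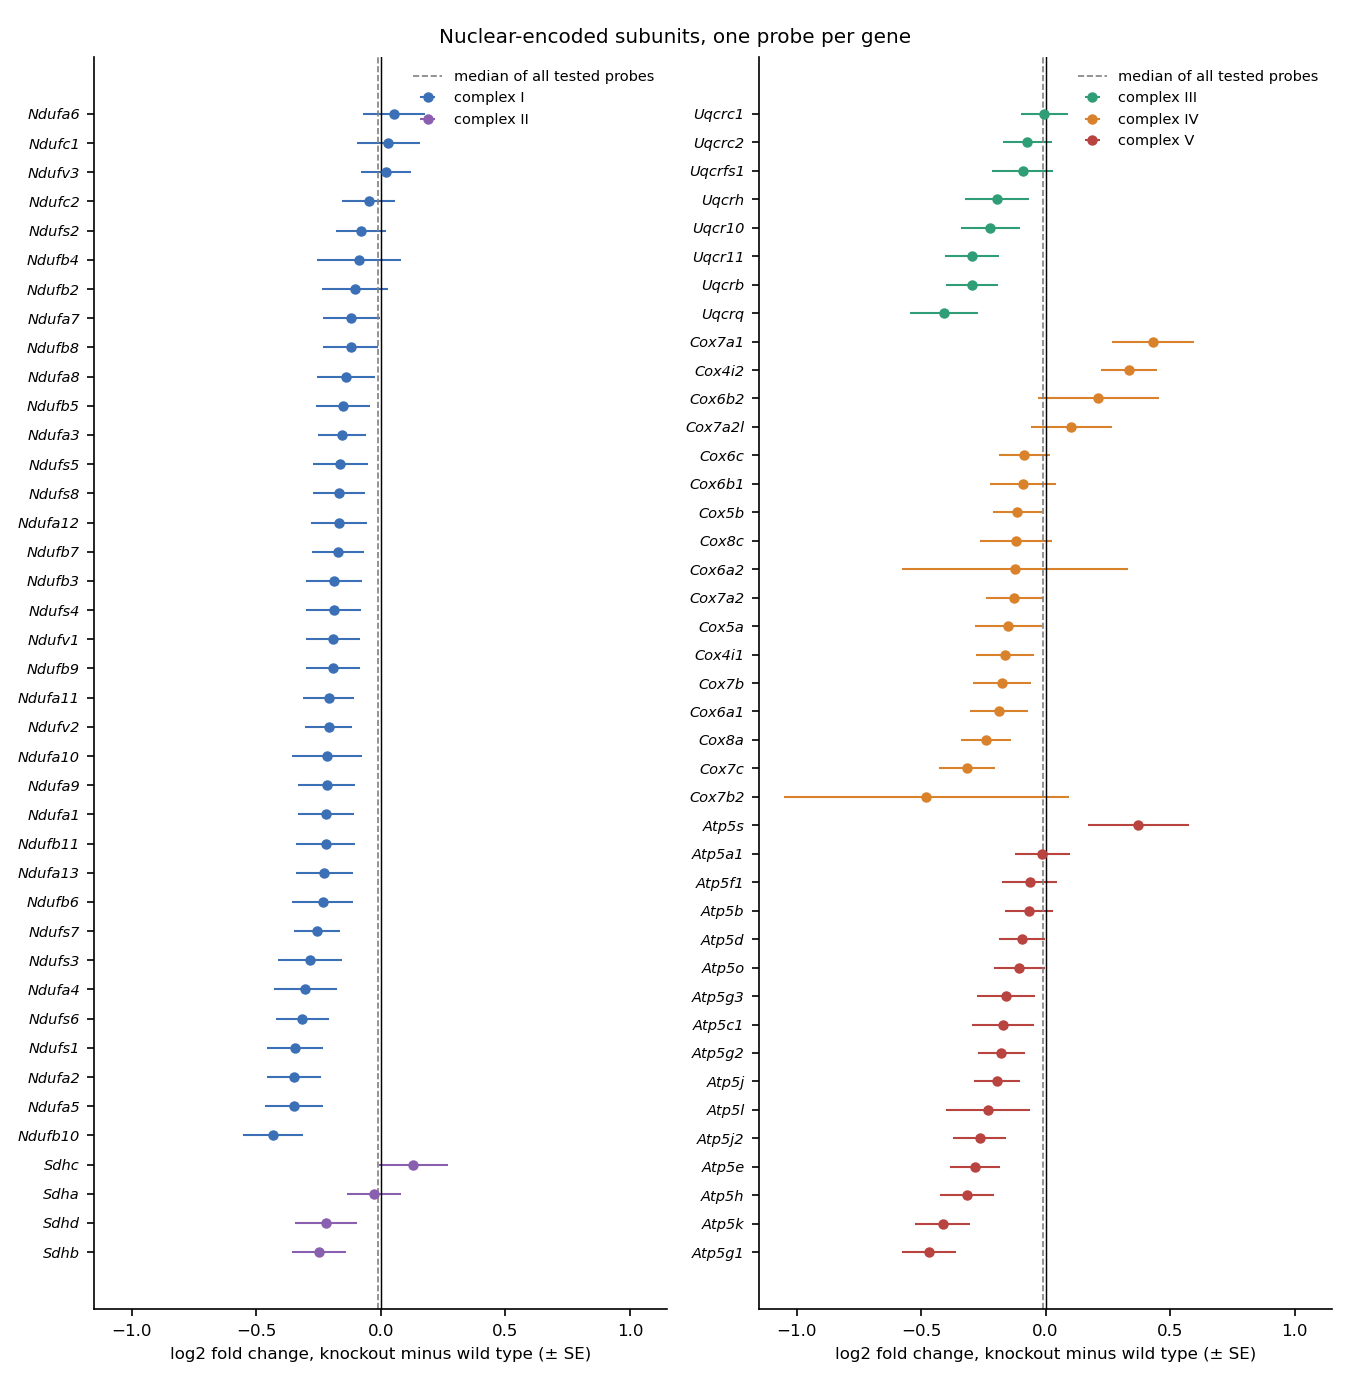
Log2 fold change (knockout minus wild type, x axis) of each tested subunit gene at its representative probe, sorted within complexes I to V; points are limma estimates, bars are the standard error, and the dashed line is the median of all tested probes (-0.011). Most points lie left of 0, and the points farthest right are Cox7a1, Atp5s and Cox4i2.

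Subunit probes were bright, and bright probes as a whole had negative differences on these arrays. All 81 tested genes were well above background on all 6 arrays, no subunit spot was saturated (0 probes), and 76 genes lay in the brightest of 5 equal groups of tested probes ranked by mean signal. In that group the probes of all other genes had a median log2 fold change of -0.12, 72.1% were negative and 28.2% had separate groups with the knockout lower. The subunit genes in the same group had a median of -0.18. Over all tested probes these shares were 51.4% and 15.4%. In groups 2 and 3, counted from the dimmest, the probes of other genes had positive medians of 0.077 and 0.064. These groups held 3 and 1 of the subunit genes. The part of probe brightness in the subunits' values was not tested.

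**Figure D2:**
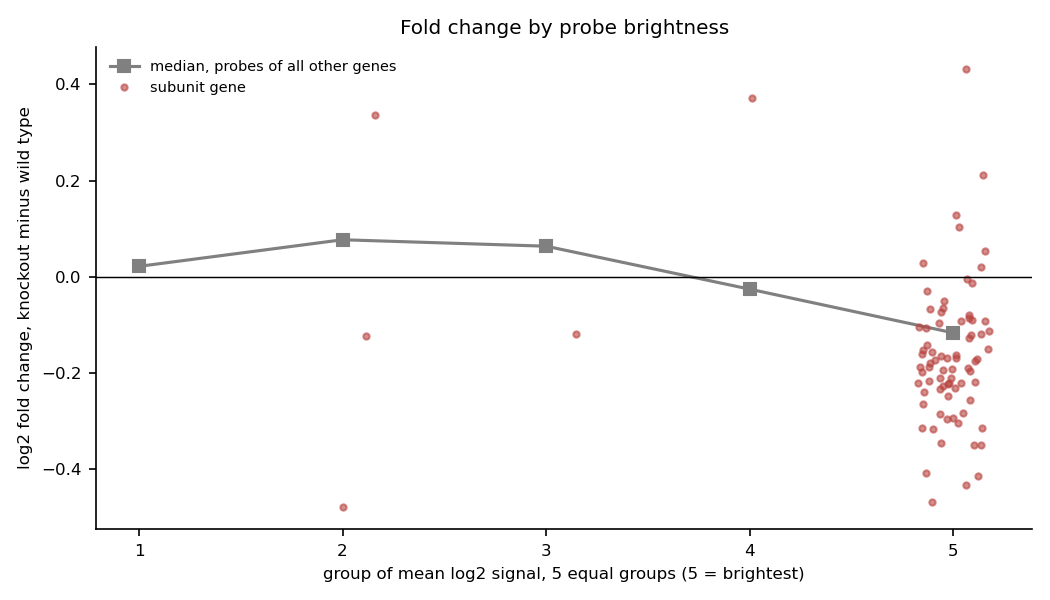
Log2 fold change (y axis) in 5 equal groups of tested probes by mean log2 signal (x axis, 5 is the brightest); squares are medians over probes of all other genes and points are subunit genes. Of the 81 subunit genes, 76 fall in group 5, where the median of the other probes is -0.12.

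The arrays contributed unequally. Measured from each gene's mean over the 6 arrays, the median over the subunit genes was 0.086, 0.13 and 0.036 for wild type arrays 1 to 3. For knockout arrays 1 to 3 it was -0.022, -0.023 and -0.22. Of all 26651 tested probes, knockout replicate 3 was the lowest array for 5810 and wild type replicate 2 the highest for 5924. Of the 81 subunit genes, knockout replicate 3 was the lowest for 69 and wild type replicate 2 the highest for 38. Without knockout replicate 3 the median log2 fold change was -0.11, with 66 genes negative and 15 positive. The genes lower at an unadjusted p under 0.05 then went from 15 to 3 (3.7%, where 6.04% of all tested probes were lower). Separate groups with the knockout lower were then counted for 35 genes (43.2%), and with the knockout higher for 1 (1.23%). Leaving out an array cannot undo such a separation, so these counts could not fall. Of all tested probes, 17.6% and 16.1% had these patterns without that array. The medians of complexes II, IV and V were then -0.074, -0.066 and -0.088. Under quantile normalization, which forces the same distribution of signal on each array, the median was -0.069 and 58 genes were negative, and the median of the other probes in the brightest group was -0.0077. The medians of complexes III and IV were then -0.13 and -0.068.

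**Figure D3:**
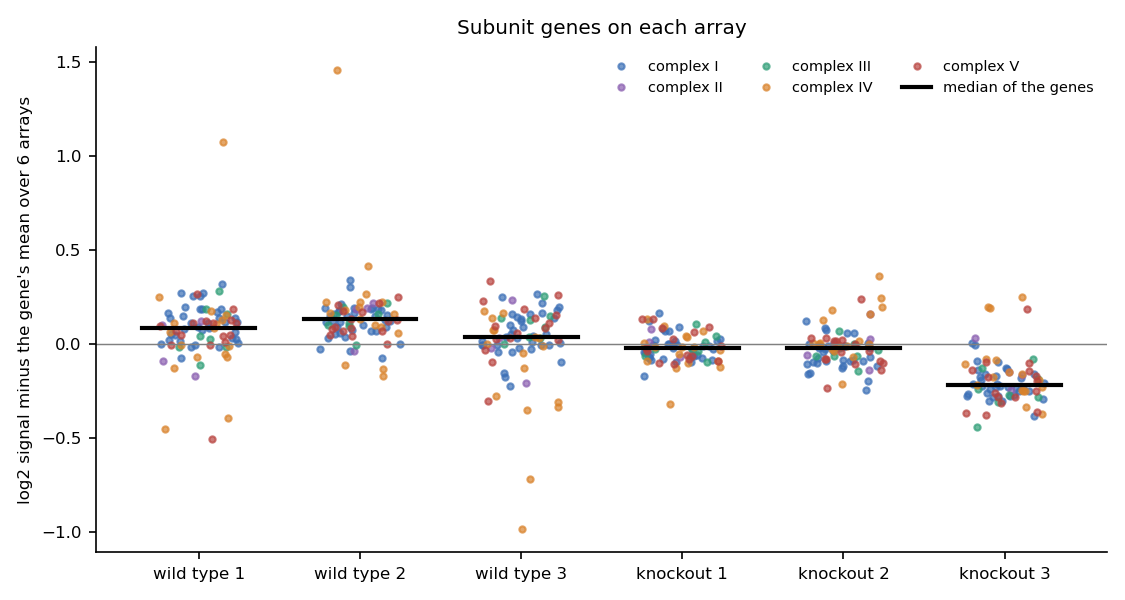
Log2 signal of each tested subunit gene minus that gene's mean over all 6 arrays (y axis) on each array (x axis); points are genes coloured by complex, bars are medians. The bar of knockout replicate 3 lies at -0.22, below the bars of the other 5 arrays.

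Fibroblast markers also differed between the arrays. Of 30 markers, which include collagens and other matrix genes, 29 were tested, 27 had a negative log2 fold change and the median was -0.74, with 0 called. Leaving out wild type replicate 1 gave a median of -1.28 and 12 markers called lower, where 1.64% of all tested probes were called lower and 0.762% higher. Their mean deviation was -0.57, 1.02 and 0.76 for wild type arrays 1 to 3, and -0.61, -0.15 and -0.45 for the knockout arrays. Wild type replicate 1 thus stood with the knockout arrays for these markers but not for the subunits, and the part of feeder RNA in the subunits' values was not tested. Of 12 ES cell markers, 12 were tested, with 6 positive and 6 negative differences and a median of -0.021. In bulk RNA, fewer cells of a type and less RNA per cell cannot be told apart.

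Complex I, the NADH dehydrogenase, had 33 genes with a negative and 3 with a positive difference (median -0.19). None was called, 6 were lower at an unadjusted p under 0.05, and 20 of 36 had separate groups with the knockout lower. Of all tested probes 11.3% and 15.4% were so, and in the brightest of the 5 signal groups, subunit probes included, 16.7% and 28.6%. Ndufb10, an accessory subunit of the membrane arm, stood at 5.40, 5.29 and 5.20 on the wild type arrays, against 4.91, 4.98 and 4.70 on the knockout arrays. Its groups did not overlap, and its log2 fold change of -0.43 ± 0.12 was the most negative of these 36 genes (adjusted p = 0.141). The accessory subunits Ndufa5 (-0.35 ± 0.12, adjusted p = 0.178) and Ndufa2 (-0.35 ± 0.11, adjusted p = 0.162) came next, also without overlap. Ndufab1, another complex I subunit, has a name outside the rule and was not counted. It differed by -0.75 ± 0.28, with overlapping groups (adjusted p = 0.200).

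At the other end of complex I, the accessory subunits Ndufa6 (0.053 ± 0.12), Ndufc1 (0.030 ± 0.13) and Ndufv3 (0.021 ± 0.10) had differences smaller than their errors, and their signs turned under at least 1 other processing. Genes with names in Ndufs, which include core subunits that carry iron-sulfur clusters, were negative in 8 of 8 cases with a median of -0.22. Those in Ndufb, accessory subunits of the membrane arm, were negative in 10 of 10 with a median of -0.18. Ndufa4, named as a complex I subunit but now placed in complex IV, stood at 4.72, 4.95 and 4.62 on the wild type arrays, against 4.52, 4.52 and 4.34 on the knockout arrays. The groups did not overlap, with a log2 fold change of -0.30 ± 0.13 (adjusted p = 0.232).

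Ndufa4l2, a relative of Ndufa4 known as a target of hypoxia signalling, was left out of the members and is given for comparison. It stood at 0.99, 0.68 and 0.50 on the wild type arrays, against 1.92, 2.50 and 2.42 on the knockout arrays. It rose by 1.56 ± 0.20 on the log2 scale (adjusted p = 0.0478). The call was lost wherever no probe of the array was called, as with normexp background correction.

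Complex II, succinate dehydrogenase, has 4 subunits, all nuclear. Sdhb, the iron-sulfur subunit, stood at 5.43, 5.53 and 5.34 on the wild type arrays, against 5.24, 5.25 and 5.06 on the knockout arrays, which did not overlap (-0.25 ± 0.11, adjusted p = 0.243). For the membrane anchors the values overlapped, with -0.22 ± 0.12 for Sdhd and 0.13 ± 0.14 for Sdhc. Sdha, the flavoprotein that oxidises succinate, differed by -0.028 ± 0.11. The median of the complex was -0.12, and it was 0.016 under quantile normalization, so the complex had no direction that held across scalings.

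Complex III, the cytochrome bc1 complex, was negative for 8 of 8 genes (median -0.21), with 3 lower at an unadjusted p under 0.05 and 0 called. Of all tested probes 51.4% were negative and 11.3% lower at that p, and in the brightest signal group 72.5% and 16.7%. Among these 8 genes the small subunits had the more negative values. Cyc1, the cytochrome c1 subunit of the complex, has a name outside the rule and was listed with the electron carriers. It differed by -0.27 ± 0.098, with separate groups and the knockout lower (adjusted p = 0.196). Uqcrq, which lies near the ubiquinone site, stood at 6.81, 6.72 and 6.67 on the wild type arrays, against 6.50, 6.39 and 6.09 on the knockout arrays. Its log2 fold change was -0.41 ± 0.14 (adjusted p = 0.177), and the groups did not overlap. Uqcrb (-0.30 ± 0.10) and Uqcr11 (-0.29 ± 0.11) were also separated. For the large core subunits Uqcrc1 (-0.0052 ± 0.094) and Uqcrc2 (-0.074 ± 0.099), and for Uqcrfs1 (-0.092 ± 0.12), the Rieske iron-sulfur protein of electron transfer, the groups overlapped and the sign turned under quantile normalization.

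Complex IV, cytochrome c oxidase, has several subunits made as alternative isoforms, of which one is common to most tissues and another belongs to muscle, lung or testis. The 11 other genes had a median of -0.15, with 10 negative. The 6 tested tissue isoforms had a median of 0.046 (3 above and 3 below 0). Of these, Cox4i2, Cox6a2 and Cox7b2 lay in signal group 2 and Cox8c in group 3, where probes as a whole had positive medians. The part of probe brightness in this contrast was not tested. The 2 members of all complexes that were higher at an unadjusted p under 0.05 were both tissue isoforms, Cox7a1 and Cox4i2.

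Cox7a1, the heart and skeletal muscle form of subunit VIIa, stood at 2.96, 3.45 and 3.00 on the wild type arrays, against 3.44, 3.71 and 3.55 on the knockout arrays. Wild type replicate 2 overlapped the knockout range, and the log2 fold change was 0.43 ± 0.17 (adjusted p = 0.210). Without wild type replicate 2 it was 0.59 (adjusted p = 0.0455). In that setting 5.29% of all tested probes were called higher, against 0.124% with all arrays. Of 5 striated muscle markers, only Actc1 was tested, and it stood at -3.38, -6.28 and -4.96 on the wild type arrays, against -3.21, -3.90 and -2.89 on the knockout arrays. The common form Cox7a2 differed by -0.13 ± 0.11, and Cox7a2l, a related protein that joins complexes III and IV, by 0.10 ± 0.16.

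Cox4i2, a form of subunit IV known from lung and from low oxygen, stood at -2.56, -2.62 and -2.84 on the wild type arrays, against -2.38, -2.33 and -2.32 on the knockout arrays. It was the one subunit gene with separate groups and the knockout higher (0.34 ± 0.11, adjusted p = 0.177). In signal group 2, where it lay, 18.65% of probes had this pattern and 10.51% the reverse. The common counterpart of Cox4i2, Cox4i1, differed by -0.16 ± 0.12, with overlap. The difference between the isoforms was not tested.

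Other tissue forms varied more between replicates than between genotypes. Cox6a2, of muscle, ranged from -4.61 to -2.82 in wild type and from -4.22 to -3.65 in knockout arrays (-0.12 ± 0.45). Cox7b2, of testis, ranged from -4.21 to -1.77 and from -3.60 to -3.36 (-0.48 ± 0.57). For both, the wild type range held the whole knockout range. Cox6b2 (0.21 ± 0.24) and Cox8c (-0.12 ± 0.15), also of testis, overlapped too, and Cox8b, of muscle, was not tested, being well above background on 1 knockout array and no other. Of 4 testis markers, 4 were tested, with a median of 0.022.

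The common forms Cox6a1 (-0.19 ± 0.12), Cox7b (-0.17 ± 0.12), Cox5a (-0.15 ± 0.13), Cox5b (-0.11 ± 0.10) and Cox6b1 (-0.091 ± 0.13) had negative values with overlapping groups. Cox8a stood at 7.42, 7.53 and 7.34 on the wild type arrays, against 7.18, 7.24 and 7.15 on the knockout arrays. It was separated, as was Cox7c, another small subunit, with -0.24 ± 0.099 (adjusted p = 0.229) and -0.32 ± 0.11 (adjusted p = 0.197).

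**Figure D4:**
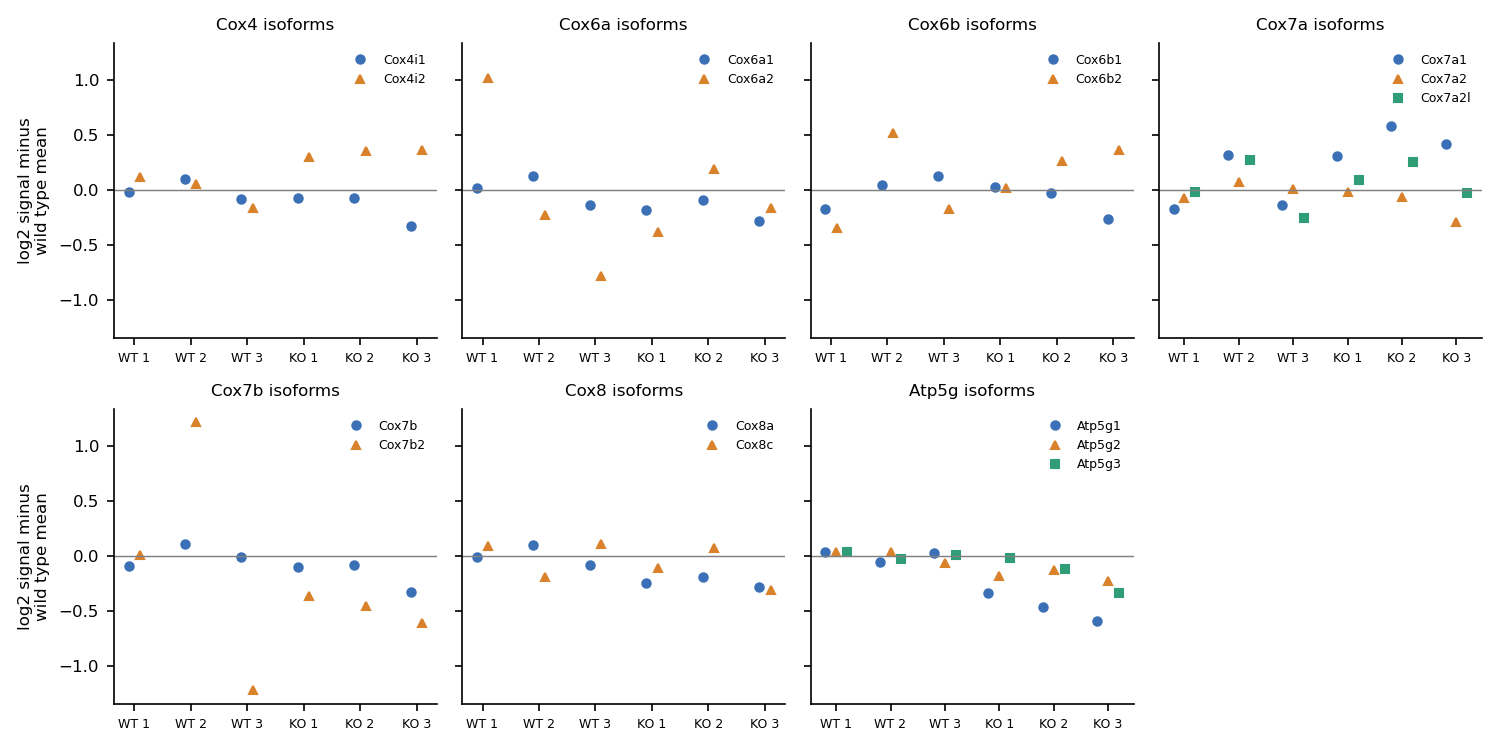
Log2 signal minus the gene's wild type mean (y axis) on each array (x axis) for isoform families of complex IV and for the 3 c-subunit genes of complex V; each point is 1 array. Cox4i2 lies above its wild type values on all 3 knockout arrays, Cox6a2 and Cox7b2 spread widely among the wild type arrays, and Atp5g1 lies lowest of the c-subunit genes on each knockout array.

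Complex V, the ATP synthase, was negative for 15 of 16 genes (median -0.17), with 5 lower at an unadjusted p under 0.05 and 0 called. Of all tested probes 51.4% were negative and 11.3% lower at that p. In the brightest of the 5 signal groups, subunit probes included, these shares were 72.5% and 16.7%. The 6 genes of the catalytic head and its connecting subunit had a median of -0.10, and the 9 genes of the membrane part and stalk had a median of -0.23. Atp5a1 (-0.013 ± 0.11) and Atp5b (-0.067 ± 0.095), the alpha and beta subunits of the head, had differences below their errors. Atp5k, subunit e at the dimer interface, stood at 5.54, 5.56 and 5.58 on the wild type arrays, against 5.26, 5.22 and 4.98 on the knockout arrays. The groups were separated, with -0.41 ± 0.11 (adjusted p = 0.137), and its other probes gave -0.38 and -0.40. Atp5h, a stalk subunit, differed by -0.31 ± 0.11 (adjusted p = 0.188), while Atp5s, a coupling factor, was the one positive gene at 0.37 ± 0.20 (adjusted p = 0.319). The current name of Atp5s is Dmac2l, and its count among the subunits rests on the older name. Without wild type replicate 2, Atp5s was at 0.59 (adjusted p = 0.0424), where 5.29% of all tested probes were called higher.

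Atp5g1, Atp5g2 and Atp5g3 encode the same mature c subunit of the proton-conducting ring. Atp5g1 stood at 6.61, 6.52 and 6.61 on the wild type arrays, against 6.24, 6.11 and 5.99 on the knockout arrays, and its log2 fold change of -0.47 ± 0.11 had the smallest adjusted p of the representative probes (0.110). For Atp5g2 it was -0.18 ± 0.094, without overlap, and for Atp5g3 -0.16 ± 0.12, with overlap.

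A second Atp5g1 probe went the other way. It stood at 2.43, 2.40 and 2.21 on the wild type arrays, against 2.67, 2.57 and 2.60 on the knockout arrays, which did not overlap (0.27 ± 0.11, adjusted p = 0.214). The probes lie at chr11:95934315-95934374 and chr11:95930317-95930376 of mouse build mm9, on the minus strand, as the scanner files place them. A stretch of each is shown, bases 1 to 30 of the first and 31 to 60 of the second, because the second holds letters that resemble a B2 repeat, a short interspersed element of the mouse genome.
Atp5g1 first probe: tgccagtcctggtgctggagtctactgagc
Atp5g1 second probe: gagttggctcagtggttaagagcgccgact
The second probe shared a run of 16 bases, on either strand, with 3 probes of other genes, and the first with 1. Of all 127 member probes 30 shared such a run and 97 did not.

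Among 29 genes with several tested probes, 7 had probes of both signs, and Atp5g1 was the one with an unadjusted p under 0.05 at both. Ndufb5, chosen after its values were seen, holds the subunit probe with the smallest adjusted p. Its brightest probe, at chr3:32650097-32650156 on the plus strand, gave -0.15 ± 0.11. A dim probe at chr3:32643684-32643743 stood at -5.16, -5.22 and -5.28 on the wild type arrays, against -4.73, -4.55 and -4.45 on the knockout arrays, without overlap (0.65 ± 0.11, adjusted p = 0.0715). Weighting the arrays made this probe a higher call (adjusted p = 0.0464), as did leaving out wild type replicate 2 (adjusted p = 0.0443). Of all tested probes, 1.19% and 5.29% were called higher in these settings. The remaining Ndufb5 probes gave -0.37 ± 0.15 and -0.14 ± 0.25. The levels of probes cannot be set against each other, so which probe stands for the gene decides the sign.

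Promoters of the subunit genes were searched for letters known from nuclear genes of respiration: GCGCA and GCGC with 1 base of any kind between them for nuclear respiratory factor NRF1, CCGGAA for ETS factors such as GABP, and AANATGGC for YY1, on both strands. The windows, from RefSeq on GRCm38.p6, run from 250 bases before to 50 after each start, and 68 of 82 genes matched with 73 windows. The NRF1 letters were in 24.7% of subunit windows and 4.6% of all 32851 windows, the ETS letters in 35.6% and 14.9%, and the YY1 letters in 23.3% and 6.05%. Median GC content was 57.3% in subunit windows and 52.7% in all. Of complex IV windows, 8 of 13 held none of the 3 (61.5%), as did 30.1% of subunit windows and 77.5% of all windows.

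Fold changes were also grouped by these letters, with no test. The median log2 fold change was -0.17 for 17 genes with the NRF1 letters, -0.22 for 25 with the ETS letters, -0.17 for 17 with the YY1 letters and -0.18 for 18 tested genes with none. The 100 bases before the start are shown for Atp5k and Uqcr11, which are among the most negative genes, for Sdha, with a difference near 0, and for Cox7a1, the most positive gene. Capitals mark the NRF1 or ETS letters.
Atp5k, chr5:108434400-108434499, minus strand: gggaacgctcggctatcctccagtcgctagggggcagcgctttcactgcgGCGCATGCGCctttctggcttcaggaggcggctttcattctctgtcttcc
Uqcr11, chr10:80406822-80406921, minus strand: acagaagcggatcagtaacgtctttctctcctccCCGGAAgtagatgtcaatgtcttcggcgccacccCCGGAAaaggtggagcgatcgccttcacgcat
Sdha, chr13:74350241-74350340, minus strand: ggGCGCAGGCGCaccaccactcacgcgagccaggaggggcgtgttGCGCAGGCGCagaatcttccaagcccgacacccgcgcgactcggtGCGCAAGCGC
Cox7a1, chr7:30184071-30184170, plus strand: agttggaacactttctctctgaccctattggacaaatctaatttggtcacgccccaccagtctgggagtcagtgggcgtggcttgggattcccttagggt
Atp5k holds the NRF1 letters and Uqcr11 the ETS letters, Sdha holds the NRF1 letters at several places, and the Cox7a1 stretch holds none of the 3. A match is a description of letters and not a bound site.

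The other lists of nuclear genes for mitochondria also had negative medians, and their difference from the subunits was not tested. Of 44 assembly factors, which build the complexes, 34 were negative (median -0.15, 0 called). Uqcc3, needed for complex III, stood at 3.54, 3.16 and 3.60 on the wild type arrays, against 2.81, 2.78 and 2.66 on the knockout arrays (adjusted p = 0.0989). Those groups were separated, as were those of Cox17, a copper chaperone of complex IV (adjusted p = 0.120), and of Coa3 (adjusted p = 0.142). The 17 electron carrier genes, which include those for ubiquinone synthesis, had a median of -0.14, with 11 negative and 6 positive. Coq9, one of these, stood at -0.55, -0.46 and -0.24 on the wild type arrays, against 0.040, -0.092 and -0.13 on the knockout arrays (0.36 ± 0.12, adjusted p = 0.182). Its groups were separated, with the knockout higher. Pdss1 had the smallest p of the list and went the other way, at -0.64 ± 0.18 with separate groups (adjusted p = 0.138). Coq4 was also negative, at -0.63 ± 0.23 with overlapping groups (adjusted p = 0.196). The 14 enzymes of the tricarboxylic acid cycle, which supplies NADH and succinate, had a median of -0.14, with 11 negative. Under quantile normalization the medians were -0.099 for assembly factors, -0.072 for carriers (9 negative and 8 positive) and -0.023 for the cycle. The cycle's median was -0.061 without wild type replicate 2 and -0.086 without knockout replicate 3, and that of the carriers -0.091 without knockout replicate 2. Mdh2, malate dehydrogenase, stood at 7.04, 6.98 and 6.97 on the wild type arrays, against 6.77, 6.71 and 6.59 on the knockout arrays (adjusted p = 0.166), without overlap.

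Among 17 tested regulators of mitochondrial gene expression the median was -0.16, with 12 negative. It was -0.084 under quantile normalization and -0.081 without wild type replicate 1. Ssbp1, the mitochondrial single-stranded DNA binding protein, stood at 4.64, 4.64 and 4.79 on the wild type arrays, against 4.36, 4.27 and 4.23 on the knockout arrays (adjusted p = 0.122). Polg, the mitochondrial DNA polymerase, had the opposite order, at 0.28, 0.31 and 0.16 in wild type against 0.56, 0.52 and 0.55 (adjusted p = 0.171). Both were separated, and 0 genes of the list were called.

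The 78 genes of the mitochondrial ribosome, which translates the subunits encoded in mitochondrial DNA, had a median of -0.29, with 76 negative. At an unadjusted p under 0.05, 37 were lower and 0 higher, where 11.3% and 10.6% of all tested probes were. The 78 genes had median log2 signals of 3.05 to 3.45 on single arrays, within the brightest of the 5 signal groups. In that group 72.5% of probes were negative and 16.7% lower at that p. The part of probe brightness in these values was not tested. No gene was called (0 of 78), and 7 were called lower without wild type replicate 2. In that setting 4.31% of all tested probes were called lower and 5.29% higher. Mrps25 stood at 4.30, 4.15 and 4.32 on the wild type arrays, against 3.86, 3.68 and 3.57 on the knockout arrays, without overlap (adjusted p = 0.0993). Under quantile normalization the median was -0.21 with 72 negative. Knockout replicate 3 was the lowest array for 67 of these 78 genes, and for 5810 of all 26651 tested probes.

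**Figure D5:**
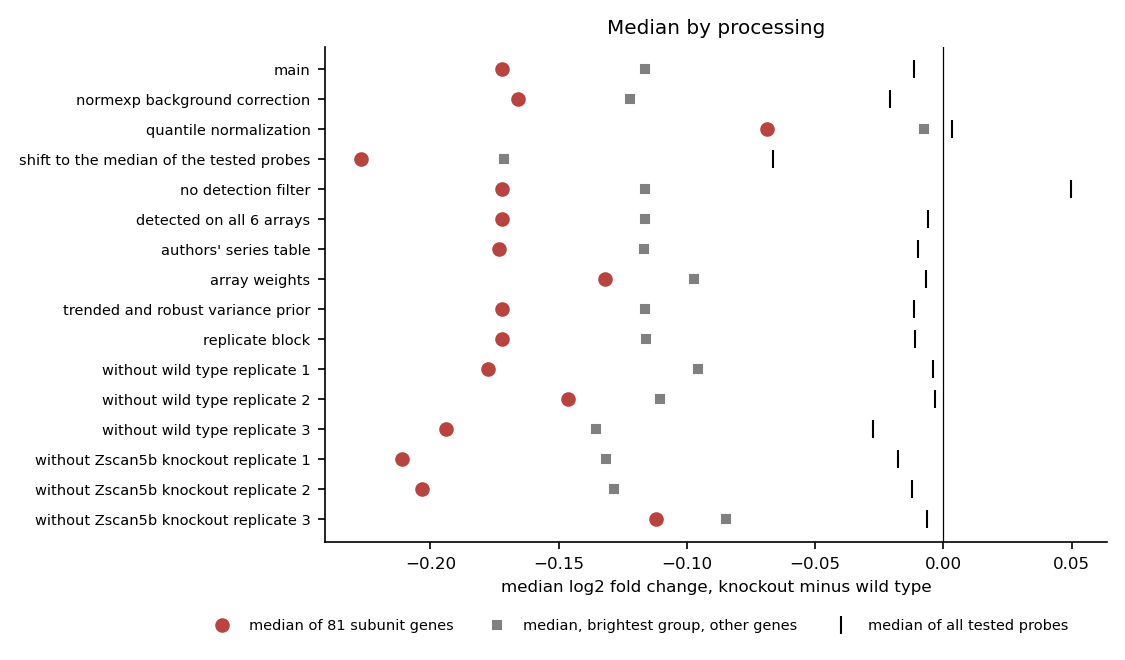
Median log2 fold change (x axis) over the 81 tested subunit genes (circles), over other genes' probes in the brightest of 5 groups (squares) and over all tested probes (ticks), under each processing (y axis). The circles stay below 0 throughout and are nearest to 0 under quantile normalization (-0.069).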

How the data were processed

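Per the labels' protocols, total RNA was extracted with Trizol and labelled with Cy3 by a 1-colour protocol. The deposited scanner files give a linear intensity for every spot, background-subtracted and detrended by Feature Extraction 10.7.3.1 per the file headers, while version 10.3.1.1 stands in the submitters' processing notes. The authors' series table holds log2 values centred per probe, with unstated scaling, and served as an alternative. Control and outlier spots were left out, log2 signals were averaged per probe and shifted by each array's 75th percentile. Probes well above background on at least 3 arrays (26651 of 39429, 67.6%) were fitted with lmFit and eBayes of limma 3.58.1 under R 4.3.3 (two-sided, adjusted p threshold 0.05); the fit was tested on simulated data. Further software was the R package data.table (1.17.8), Python 3.11.15 and pandas 2.3.3, figures with matplotlib 3.10.9. The number of arrays limits the precision.

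The members and lists were chosen with earlier results of these data known. Named genes were, per complex, up to 3 with the most positive and 3 with the most negative log2 fold change, isoform families whatever their values, genes with opposed probes, Zscan5b and Ndufa4l2, and up to 3 with the smallest p of each further list. Cyc1, a complex III subunit outside the name rule, was named after its values were seen. No subunit encoded in mitochondrial DNA was matched by name (0 genes). Probe positions are on mm9, and RefSeq names on GRCm38.p6 were used for promoters and names.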

Additional observations from a re-analysis of the deposited data

How the results depend on the processing

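No subunit probe was called lower under any processing tried. Subunit probes called higher were 1 with array weights, and 0 to 4 when single arrays were left out, the 4 without wild type replicate 2. Over all tested probes, 33 higher and 91 lower calls became 0 and 0 with normexp background correction, no detection filter, detection on all 6 arrays, a trended and robust variance prior, or the replicate block, 50 and 131 with quantile normalization, 54 and 177 with a shift to the median, and 318 and 324 with array weights. Leaving out single arrays gave 0 to 1409 higher and 0 to 1148 lower calls, the most without wild type replicate 2. The labels do not say whether the replicate numbers pair the arrays. Same-numbered deviations correlated at 0.16, 0.23 and -0.14, and those of other pairs at -0.32 to 0.21. With 3 arrays per group these values cannot settle pairing, so the block result is only a description.

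Quantile normalization moved the medians to -0.069 for all subunit genes, -0.068 for complex I, 0.016 for complex II and -0.082 for complex V. The complex V median ranged from -0.23 to -0.088 when single arrays were left out, the last without knockout replicate 3. Chosen after seeing the data, the count of subunit genes lower at an unadjusted p under 0.05 without that array was 3 in place of 15. The count with separate groups and the knockout lower was 35, as in the main values, and it could not fall when an array was left out. The shift to the median moved the median of all tested probes to -0.066, and relative to it the subunit median was -0.16, as in the main values.

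Of the values of named members, 584 kept their sign and side of the threshold, 2 passed it and 29 turned sign, none of these called. Under quantile normalization the turned values were 0.076 for Atp5a1, 0.015 for Cox6b1, 0.093 for Sdha, 0.12 for Uqcrc1, 0.041 for Uqcrc2 and 0.034 for Uqcrfs1. With array weights they were 0.022 for Atp5a1, 0.057 for Cox6a2 and 0.020 for Uqcrc1, and with normexp 0.016 for Uqcrc1. With the shift to the median they were -0.0016 for Ndufa6, -0.025 for Ndufc1 and -0.034 for Ndufv3. Leaving out single arrays gave ranges of -0.064 to 0.056 for Atp5a1, -0.51 to 0.38 for Cox6a2, -0.024 to 0.24 for Cox7a2l, -1.09 to 0.13 for Cox7b2, -0.046 to 0.14 for Ndufa6, -0.050 to 0.11 for Ndufc1, -0.035 to 0.069 for Ndufv3, -0.074 to 0.039 for Sdha, -0.040 to 0.035 for Uqcrc1 and -0.17 to 0.0059 for Uqcrfs1. The cause of these changes was not tested.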
